A study of Mus musculus with 1790 samples.

Results

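The neurexins Nrxn2 and Nrxn3, the neuroligins Nlgn1, Nlgn2 and Nlgn3, the neurexophilin Nxph1 and the neurexin relative Cntnap2 were followed in single cortical interneurons (INs) of the mouse and in their embryonic precursors. These 7 genes were taken by name from 49915 gene symbols that had a row in at least 1 of the deposited tables. They were chosen by values measured in these same cells, namely their levels by labelled subtype, sort and embryonic collection, so those levels and folds are given as a description with no test. All 7 had a row in every table except that of P15, which held 5 of them and had no row for Nrxn3 or Nlgn1.

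The sorted postnatal cells came from the upper layers of somatosensory cortex of untreated mice that carried Hmx3-Cre, the tdTOM reporter R26tdTOM and the Htr3a-GFP transgene. Cre driven by Hmx3 turns on tdTOM in a lineage of the embryonic preoptic area (POA), and GFP marks cells that use Htr3a. All of these cells were GFP+. They were sorted as tdTOM+ (196 cells at P15, 301 at P30) or tdTOM- (194 and 280), and captured on microfluidic C1 chips. A further 47 tdTOM+/GFP+ cells of the same genotype, from P14 to P25, were sequenced after patch-clamp recording (patch-seq). The methods place these patched cells in upper and deep cortical layers, so patch-seq and the sorts differ in the layers sampled. At E14.5 there were 418 tdTOM+/GFP+ POA cells of this genotype and 352 wild-type POA cells labelled by FlashTag, a dye taken up by progenitors dividing at the ventricle, both on C1 chips. Wild-type C57BL/6 POA (2106 cells) and caudal ganglionic eminence (CGE, 4115 cells) were captured in droplets. The methods name CD1 dams for the FlashTag injections and a C57BL/6 background for the transgenic line, so strain and collection cannot be told apart there. For the droplet libraries the methods name CD1 in one place and C57BL/6 in another; the labels, which give C57BL/6, were followed. Brains were pooled at each postnatal age and the labels tie no cell to an animal, so each sort or collection was 1 sample without replicates. No test could be run, and the Poisson intervals given with levels cover counting error only.

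Neurexins are membrane proteins of the presynaptic terminal that reach across the synaptic cleft. Neuroligins are their best-known postsynaptic partners: Nlgn1 is found mainly at excitatory synapses, Nlgn2 at inhibitory ones and Nlgn3 at both. Neurexophilins are secreted glycoproteins that bind alpha-neurexins. Cntnap2 (Caspr2) has the domain order of a neurexin and, with contactin 2, gathers voltage-gated potassium channels beside the node of Ranvier. Neurogliaform cells (NGCs), the IN type studied here, release GABA over a volume around their dense axons as well as at synapses. Each gene can give several proteins, and the deposited counts per gene do not tell the long alpha from the short beta neurexins, nor splice forms.

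In GENCODE M21 on GRCm38, Nrxn2 (ENSMUSG00000033768) lay on the plus strand of chromosome 19 at 6418731 to 6544169, and Nrxn3 (ENSMUSG00000066392) on the plus strand of chromosome 12 at 88722876 to 90334935. Nlgn1 (ENSMUSG00000063887) lay on the minus strand of chromosome 3 at 25426215 to 26332460. Nlgn2 (ENSMUSG00000051790) lay on the minus strand of chromosome 11 at 69823122 to 69837784, and Nlgn3 (ENSMUSG00000031302) on the plus strand of chromosome X at 101299168 to 101325963. Nxph1 (ENSMUSG00000046178) and Cntnap2 (ENSMUSG00000039419) were both on the plus strand of chromosome 6, at 8948431 to 9249032 and at 45059357 to 47304213. Only Nlgn3 shared exon sequence with another gene on its own strand, Gm21986, which was listed at 0 CPM in the P30 NGCs.

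Postnatal cells held a median of 204616 to 266555 counts in the 4 sorts. The core NGCs were the tdTOM+ cells labelled Lamp5 Plch2 Dock5 (Dock5+NGCs) or Lamp5 Lsp1 (Lsp1+NGCs), 69 cells with 20241510 counts at P15 and 111 cells with 29002098 counts at P30. The core non-NGCs were tdTOM- and carried another subtype's name, chiefly Vip, Sncg and other Lamp5 subtypes (89 cells with 26617367 counts, and 96 cells with 24741979 counts). The labels had been assigned from the same expression values. The counts of a group's cells were added up and scaled to a total of 1000000 (counts per 1000000 counts, CPM), and each log2 fold compares levels raised by 10 CPM. The summed NGC markers Lamp5, Ndnf, Npy, Reln and Sv2c reached 18188 CPM in NGCs and 2638 CPM in non-NGCs at P15, and 9903 and 3139 CPM at P30. Glutamatergic and vascular markers summed to at most 0.445 CPM in both groups at both ages, as did microglial markers at P15, while no microglial marker had a row at P30. The astrocyte list, led by Slc1a3, summed to 28.1 CPM in NGCs and 0.188 CPM in non-NGCs at P15 and to 9.55 and 0 CPM at P30, and its part in the values below was not tested. The oligodendrocyte marker Mbp was at 14.3 to 38.1 CPM in these groups. The MGE interneuron gene Lhx6 was at 0 in NGCs at both ages.

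Nxph1, the secreted neurexin ligand, was the member with the widest gap between core NGCs and non-NGCs. At P15 it reached 632 CPM (95% Poisson interval 621 to 643) in the core NGCs and 30.8 CPM (28.7 to 33.0) in the core non-NGCs, which is a log2 fold of 3.98. The P30 levels were 499 CPM (490.5 to 507) and 83.0 CPM (79.5 to 86.7), a log2 fold of 2.45. A member was taken as past the fold where the log2 fold was at least 1 in size and the higher group had at least 10 CPM. Nxph1 was the only member past it: 1 of 5 at P15, where 13.8% of the 9081 genes that could pass did so, and 1 of 7 at P30, where 14.3% of 10323 genes did. The choice of the list used this contrast, so nothing is read from these counts. The fold depends on the labels: between the whole tdTOM+ and tdTOM- sorts Nxph1 was at 320.3 and 128 CPM at P15 (log2 fold 1.26) and at 362 and 106 CPM at P30 (1.67), and between inconclusive cells of these sorts the log2 folds were 0.53 and 2.21.

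The difference was carried by most cells rather than by a few. At P15 single NGCs ran from 0 through a median of 559 CPM to a highest 2454 CPM, and single non-NGCs from 0 through a median of 4.53 CPM to 748 CPM. At least 50 CPM of Nxph1 was present in 65 of 69 NGCs (94.2%, exact 95% interval 85.8 to 98.4%) and in 10 of 89 non-NGCs (11.2%, 5.52 to 19.7%). At P30 the medians were 377 CPM in NGCs and 5.58 CPM in non-NGCs, with highest cells at 2347 and 1642 CPM, and the same mark was reached by 98 of 111 NGCs (88.3%) and 20 of 96 non-NGCs (20.8%). The ranges of the groups overlapped at both ages, while the medians lay far apart. With every cell thinned to 132413 counts at P15, 100% of 64 NGCs and 42.3% of 78 non-NGCs had a count of Nxph1, against 98.6% and 64.0% unthinned. At P30, thinning to 136253 counts left 98.0% of NGCs and 58.8% of non-NGCs with a count, against 96.4% and 67.7% unthinned.

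**Figure D1:**
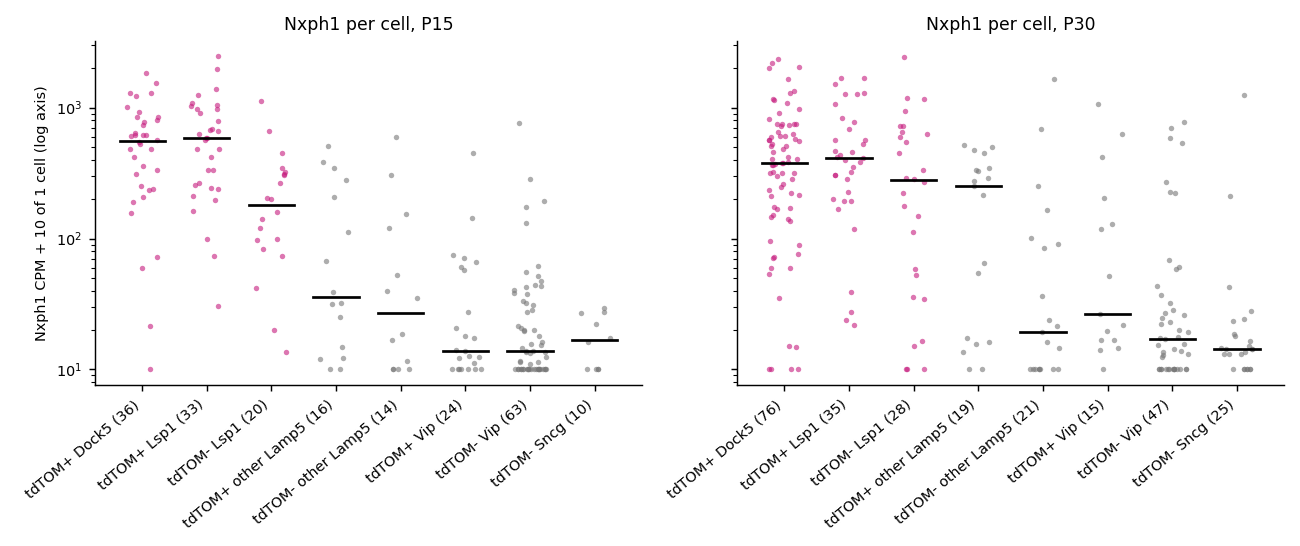
Nxph1 in single cells at P15 (left) and P30 (right), by labelled class and sort, with the number of cells in brackets. Each point is 1 cell, the y axis is its CPM plus 10 on a log scale, black bars are medians, and Dock5 and Lsp1 cells are in magenta. At P15 the Dock5 and Lsp1 tdTOM+ cells centre near 500 to 600 CPM while most Vip and Sncg cells lie near 0.

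Among labelled subtypes Nxph1 was highest in the Dock5 and Lsp1 cells, but not in Lamp5 subtypes as a whole. At P15, 12 groups of subtype and sort had at least 5 cells. Dock5+NGCs were highest at 668 CPM (653 to 684), followed by Lsp1+NGCs at 593 CPM (578 to 609), tdTOM- Lsp1 cells at 224 CPM (211 to 237) and tdTOM+ Lamp5 Ntn1 Npy2r cells at 181 CPM (166 to 198). The Vip Crispld2 Kcne4 cells were next at 104 CPM (92.4 to 116), with 78.8% of these counts from 1 of 10 cells. The other 7 groups lay between 5.14 and 25.3 CPM, and the lowest was Lamp5 Fam19a1 Tmem182, a Lamp5 subtype. Of the 11 neighbouring pairs in this order, 6 had overlapping intervals, all of them among the 7 lowest groups.

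At P30 the 2 highest of 16 groups were again Dock5+NGCs at 514 CPM (504 to 524) and Lsp1+NGCs at 468 CPM (455 to 482). The tdTOM- Lsp1 cells followed at 411 CPM (396 to 426), and after them the 5 tdTOM- Lamp5 Krt73 cells at 344 CPM (315 to 375), with 72.5% of these counts from 1 cell. Some subtypes outside Lamp5 were well above 0: Sncg Vip Nptx2 was at 190.4 CPM (174 to 208) and Vip Crispld2 Kcne4 at 125 CPM (111 to 142). Their single-cell medians were only 14.1 and 16.5 CPM, and 1 cell held 74.2% and 46.6% of the counts. Lamp5 Fam19a1 Tmem182 was at 17.4 CPM, and Sncg Gpr50 and Sncg Vip Itih5 were lowest, at 2.67 and 2.91 CPM. Over the 9 groups present at both ages the order of Nxph1 levels recurred (Pearson r = 0.93 and Spearman rho = 0.93 between P15 and P30 levels); these groups share chips and sorts within an age, and the value is a description.

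The neurexins themselves ran the other way between the core groups. Nrxn2 was found in every core cell of both ages. Its P15 level was 439 CPM (429.9 to 448) in NGCs and 631 CPM (622 to 641) in non-NGCs (log2 fold -0.51). Its P30 level was 363 CPM (356 to 370) in NGCs and 567 CPM (558 to 577) in non-NGCs (log2 fold -0.63). Single cells overlapped widely: at P15 the medians were 450.2 CPM in NGCs and 585 CPM in non-NGCs, within ranges of 28.5 to 1671 and 115 to 2439 CPM. Vip subtypes had the highest Nrxn2 levels at both ages. Vip Crispld2 Htr2c held 1692 CPM at P15 and Vip Lect1 Oxtr 1102 CPM at P30. The Lsp1 cells of either sort were among the lowest, at 399 and 313 CPM at P15 and 252.5 and 294 CPM at P30. Some Lamp5 groups of the non-NGCs were low as well. Lamp5 Fam19a1 Tmem182 had 345 CPM at P15 and 342 CPM at P30, below the Dock5+NGCs at 476 and 419 CPM. Lamp5 Krt73 was the lowest of 16 groups at P30, at 251 CPM. Between inconclusive cells of the sorts the log2 folds of Nrxn2 were -0.34 at P15 and -0.15 at P30.

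Nrxn3 could be read at P30 only. It reached 1319 CPM (1306 to 1333) in NGCs and 2646 CPM (2626 to 2666) in non-NGCs, a log2 fold of -0.9985 that lay just inside the mark, within an interval of -1.02 to -0.97. Single NGCs ran from 14.2 through a median of 1236 CPM to 5542 CPM, and single non-NGCs from 258 through 2093 CPM to 6072 CPM. The gap depended on which non-NGCs were compared: Sncg cells were highest at 3808 CPM (3766 to 3851), other Lamp5 cells of the tdTOM- sort had 2410 CPM (2371 to 2450.1), and Vip cells had 1813 CPM (1787 to 1839). Against Vip cells alone the log2 fold of Nrxn3 was -0.46, while that of Nxph1 was 2.69. The Lsp1 cells of both sorts were the 2 lowest of 16 groups, at 1142 CPM (1121 to 1163) in tdTOM+ and 1144 CPM (1119 to 1169) in tdTOM- cells.

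No neuroligin passed the fold between the groups. Nlgn2, the neuroligin of inhibitory synapses, was higher in NGCs at both ages but stayed under the mark, P15 NGCs holding 60.0 CPM (56.7 to 63.5) and P15 non-NGCs 30.7 CPM (28.6 to 32.8), a log2 fold of 0.78. P30 NGCs held 55.9 CPM (53.2 to 58.6) and P30 non-NGCs 38.2 CPM (35.8 to 40.7), a log2 fold of 0.45. The Dock5+NGCs and Lsp1+NGCs had 65.8 and 53.7 CPM of Nlgn2 at P15, and the tdTOM- Lsp1 cells had 28.0 CPM. Nlgn3 was level between NGCs and non-NGCs at P15 (313 and 315 CPM, log2 fold -0.01, interval -0.08 to 0.05) and at 117 and 154 CPM at P30 (log2 fold -0.38). The P30 value had no settled direction: it ran from -0.87 to 0.19 over the alternatives, with the other sign in plate rows 21 to 40, and 73.0% of NGCs and 75% of non-NGCs had a count. Nlgn1, readable at P30 only, was at 71.3 CPM (68.3 to 74.4) in NGCs and 50.5 CPM (47.8 to 53.4) in non-NGCs. It was patchy: 50.5% of NGCs and 46.9% of non-NGCs had a count, and the medians over cells were 1.08 and 0 CPM.

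Subtypes placed the neuroligins in no common order. Nlgn3 was highest in Vip Chat Htr1f at P15 (809 CPM, 749 to 873, 5 cells) and lowest in tdTOM+ Lamp5 Ntn1 Npy2r (151 CPM), which was the highest group at P30 (261 CPM). Over the 9 groups present at both ages its levels correlated at r = -0.49, and those of Nlgn2 at r = -0.08. For Nlgn2 the intervals of all 11 neighbouring pairs at P15 and of 14 of 15 at P30 overlapped, so its order was not resolved. Nlgn1 ran from 1.30 CPM in Lamp5 Krt73 to 214 CPM in tdTOM- Lamp5 Ntn1 Npy2r, both groups of 5 cells, while the tdTOM+ Lamp5 Ntn1 Npy2r cells had 5.41 CPM.

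Cntnap2, the potassium channel organiser, was close between the core groups. P15 NGCs held 964 CPM (951 to 978) and P15 non-NGCs 1115 CPM (1103 to 1128), a log2 fold of -0.21, and the P30 levels were 806 CPM (796 to 816) in NGCs and 973 CPM (960.4 to 985) in non-NGCs, a log2 fold of -0.27. Its subtypes were spread more widely. At P15 Vip Ptprt Pkp2 cells of either sort had 2421 CPM (tdTOM+) and 2372 CPM (tdTOM-), and Vip Crispld2 Kcne4 cells had 1888 CPM, whereas Vip Chat Htr1f had 283 CPM (248 to 321) and Vip Igfbp6 Pltp 395 CPM (375 to 417). At P30 Vip Crispld2 Kcne4 was highest at 1871 CPM and Sncg Gpr50 lowest at 469 CPM, with the Lamp5 groups from 568 to 1628 CPM. Over the 9 shared groups the Cntnap2 levels of both ages correlated at r = 0.80 and those of Nrxn2 at r = 0.75.

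**Figure D2:**
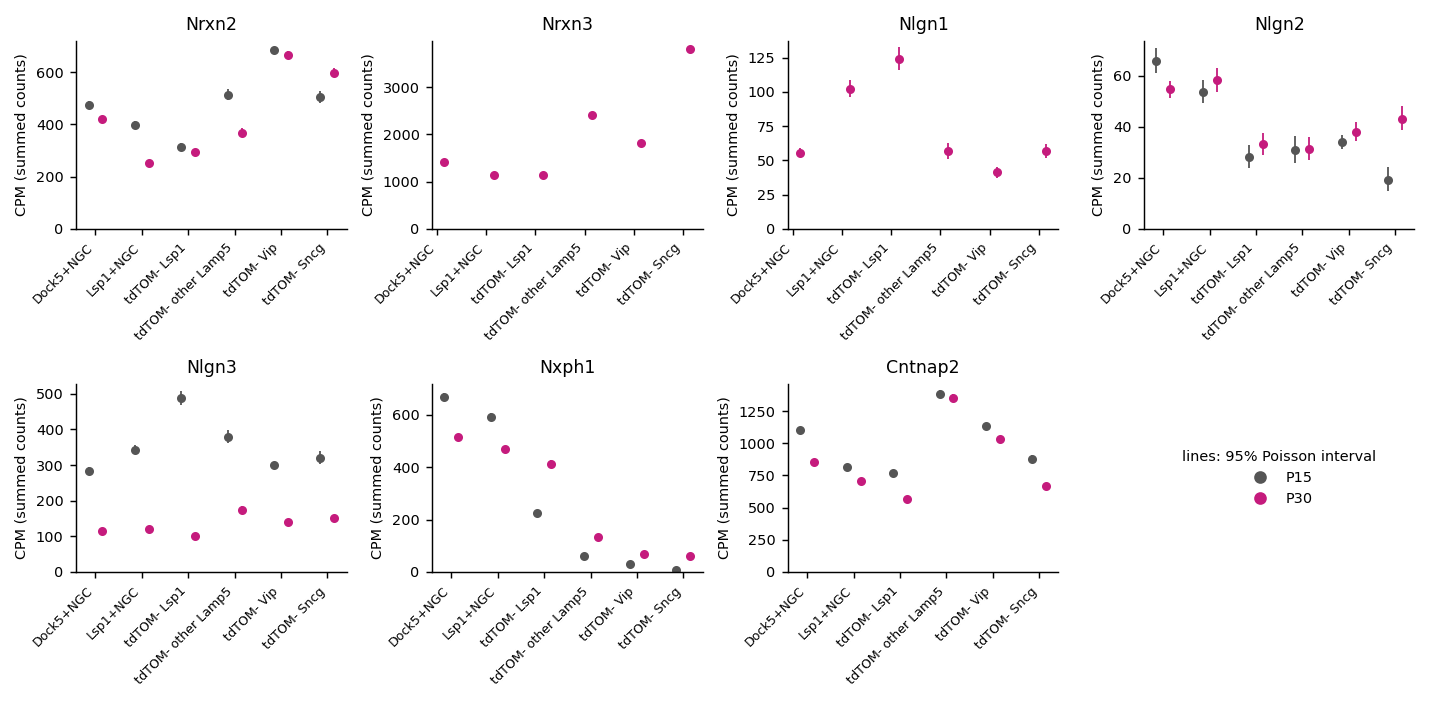
CPM of the 7 members in 6 classes at P15 (grey) and P30 (magenta); points are summed counts of a class and vertical lines are 95% Poisson intervals, often smaller than the point. Nxph1 steps down from Dock5+NGCs to Sncg cells at both ages, Nrxn3 is highest in Sncg cells at 3808 CPM, and Nlgn3 lies lower at P30 than at P15 in every class shown; levels here use all rows of each table, which differ between ages.

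Within the NGCs, none of the members passed the fold between Dock5+NGCs and Lsp1+NGCs. This held for 0 of 5 at P15 (36 and 33 cells), where 19.3% of all genes passed, for 0 of 7 at P30 (76 and 35 cells), where 19.4% passed, and for 0 of 7 in patch-seq (20 and 27 cells), where 18.3% passed. Nxph1 had no settled direction: its summed levels were 668 and 593 CPM at P15, 514 and 468 CPM at P30 and 473 and 315 CPM in patch-seq, with log2 folds of 0.17, 0.13 and 0.57. Each fold took the other sign when CPM were averaged over cells (lowest values over the alternatives -0.15, -0.20 and -0.13), and at least 50 CPM was reached by a smaller share of Dock5+NGCs each time (91.7 against 97.0%, 88.2 against 88.6% and 75 against 85.2%). Cntnap2 was higher in Dock5+NGCs in all 3 collections, with log2 folds of 0.43, 0.27 and 0.90, and kept that sign in every alternative run. Of the Cntnap2 complex (contactins, protein 4.1, Adam and Lgi proteins and Kv1 channels), 2 genes were past the fold towards Dock5+NGCs and 0 towards Lsp1+NGCs of 17 at P15, 2 and 1 of 19 at P30, and 2 and 2 of 19 in patch-seq, with list medians of 0.18, 0.32 and -0.37. The contactin gene Cntn6, singled out after its values were seen, was past the fold towards Dock5+NGCs in all 3 collections, at 29.8 against 5.47 CPM (P15), 88.9 against 21.7 CPM (P30) and 25.8 against 7.35 CPM (patch-seq).

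Nrxn2 and Nlgn1 showed the widest gaps between the subtypes at P30. Dock5+NGCs held 419 CPM (410.3 to 429) of Nrxn2 and Lsp1+NGCs 252.5 CPM (243 to 263), with a log2 fold of 0.71. For Nlgn1 the Dock5+NGCs held 55.4 CPM (52.1 to 58.8) and the Lsp1+NGCs 102 CPM (96.2 to 109), with a log2 fold of -0.78. In patch-seq Nrxn2 had the opposite sign, since Dock5+NGCs held 88.8 CPM (82.4 to 95.5) and Lsp1+NGCs 178 CPM (175 to 182). A single Lsp1 cell held 72.9% of those Nrxn2 counts and 30.0% of all counts of the group, and with the deepest cell of each subtype left out, an alternative added after seeing the data, the levels were 93.9 and 69.0 CPM (log2 fold 0.40). In patch-seq Nlgn1 was at 53.0 and 84.6 CPM (log2 fold -0.59, from -0.82 to 0.12 over the alternatives, with the other sign when CPM were averaged over cells), and Nlgn3 at 26.2 and 62.1 CPM (log2 fold -0.99, from -1.21 to -0.36). Among the Lsp1 cells, 1 cell held 53.4% of the Nlgn1 counts and 48.2% of the Nlgn3 counts. The patch-seq groups also differed in depth, with medians of 378452 and 1037400 counts per cell, and in markers of another cell type: 3 oligodendrocyte markers summed to 457 CPM in Dock5 and 2159 CPM in Lsp1 cells, led by Mbp at 393 and 1728 CPM, and the 4 glutamatergic markers to 19.6 and 186 CPM. Their part in these values was not tested, nor was that of the deep cortical layers, which only patch-seq sampled.

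Lsp1 cells were found in both sorts, so cells of 1 label could be compared with and without the tdTOM reporter. At P15 the tdTOM+ Lsp1 cells had 593 CPM (578 to 609) of Nxph1 and the 20 tdTOM- Lsp1 cells 224 CPM (211 to 237), a log2 fold of 1.37. This was 1 of 5 members past the fold, beside 23.7% of all genes. The other members lay between log2 folds of -0.49 (Nlgn3, 344 against 488 CPM, and 0.05 in plate rows 21 to 40) and 0.75 (Nlgn2, 53.7 against 28.0 CPM). At P30 the Nxph1 levels were 468 CPM (455 to 482) and 411 CPM (396 to 426), a log2 fold of 0.18, and 0 of 7 members passed, beside 30.4% of all genes. At least 50 CPM of Nxph1 was reached by 97.0% of tdTOM+ and 85% of tdTOM- Lsp1 cells at P15, and by 88.6% and 67.9% at P30. Nlgn2 was again higher in the tdTOM+ cells, at 58.2 against 33.2 CPM (log2 fold 0.66). Nrxn3 was level at 1142 and 1144 CPM.

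**Figure D3:**
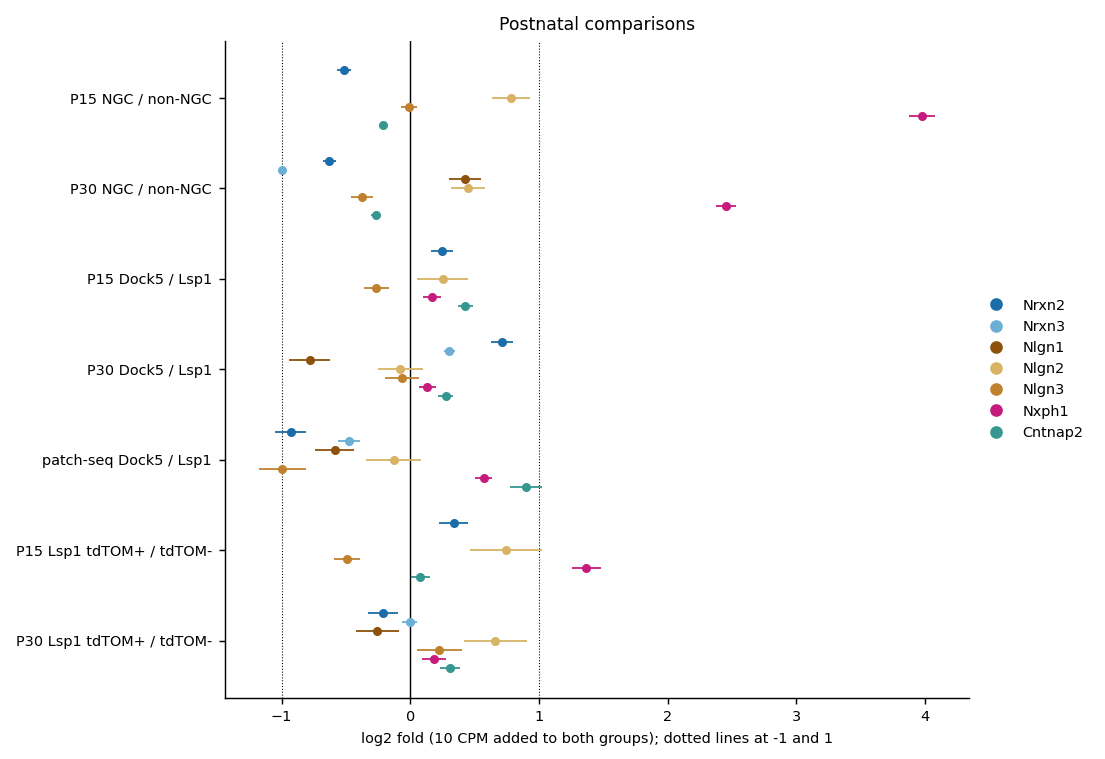
Log2 folds of the members in 7 postnatal comparisons, group named first over group named second. Points are folds of summed CPM with 10 CPM added, horizontal lines span the Poisson bounds of both groups, and dotted lines mark -1 and 1. Nxph1 stands at 3.98 and 2.45 for NGCs over non-NGCs, its P15 fold for tdTOM+ over tdTOM- Lsp1 cells is 1.37, and no other member passes -1 or 1 in any row.

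At E14.5 the neurexins and Nxph1 were higher in the tdTOM+/GFP+ than in the FlashTag+ POA cells, collections that differ in sort, genotype and strain as well as in maturity. The tdTOM+/GFP+ POA cells were nearly all post-mitotic-like (412 of 418 had more counts of neuronal than of progenitor markers), and the FlashTag+ cells were mostly progenitor-like (301 of 352). Nrxn3 was at 479.6 CPM (476 to 483) in tdTOM+/GFP+ cells and 57.8 CPM (56.4 to 59.3) in FlashTag+ cells, a log2 fold of 2.85. Nrxn2 was at 128 and 53.2 CPM (log2 fold 1.12) and Nxph1 at 21.3 and 4.11 CPM (log2 fold 1.15). These were 3 of 7 members past the fold, all higher, beside 22.8% of all genes (7.53% higher and 15.3% lower). Nxph1 was still rare at this age: 15.8% of tdTOM+/GFP+ cells and 2.84% of FlashTag+ cells had a count, and 34 of the 418 (8.13%, 5.70 to 11.2%) had at least 50 CPM.

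Within FlashTag+ cells, post-mitotic-like against progenitor-like, Nrxn3 was at 286 and 17.5 CPM, Nrxn2 at 87.7 and 47.1 CPM and Nxph1 at 7.81 and 3.45 CPM, and 21.6 and 18.6% of cells reached 50 CPM of Nrxn2.

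Neuroligins and Cntnap2 did not share that direction in the whole collections. Nlgn3 was at 70.1 CPM (68.8 to 71.4) in tdTOM+/GFP+ and 129 CPM (126 to 131) in FlashTag+ cells, a log2 fold of -0.79, and Nlgn1 at 38.3 and 63.5 CPM (log2 fold -0.61), although 38.0% of tdTOM+/GFP+ and 28.7% of FlashTag+ cells had a count of Nlgn1. Nlgn2 was level at 14.7 and 13.9 CPM. Cntnap2 was at 62.7 and 92.1 CPM (log2 fold -0.49). With post-mitotic-like cells alone (412 and 51), an alternative added after seeing the data, the Cntnap2 fold turned to 1.40 (63.7 against 18.0 CPM). The Nlgn3 fold turned to 0.25 (71.4 against 58.4 CPM) and the Nrxn3 fold fell to 0.75 (487 against 286 CPM). Nrxn2 and Nxph1 were not past the fold in that alternative either. In the FlashTag+ progenitor-like cells Cntnap2 was at 105 CPM (103 to 107) and Nlgn3 at 141 CPM (139 to 143). The astrocyte list, whose gene Slc1a3 is also used by radial glia, summed to 1159 CPM in FlashTag+ and 4.96 CPM in tdTOM+/GFP+ cells, and its part in these folds was not tested.

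In droplets, where cells held a median of 7574 (POA) and 5710 (CGE) counts, Nrxn3 was higher in post-mitotic-like than in progenitor-like cells of both regions. In the POA (1558 and 539 cells) it was at 254 CPM (246 to 261) and 69.9 CPM (62.7 to 77.8), a log2 fold of 1.72, which was the only 1 of 7 members past the fold, beside 8.03% of all genes. In the CGE (2738 and 1336 cells) it was at 525 CPM (514 to 536) and 92.2 CPM (86.4 to 98.2), a log2 fold of 2.39. Nxph1 there rose from 13.7 CPM (11.6 to 16.2) in progenitor-like to 95.3 CPM (90.7 to 100.0) in post-mitotic-like cells (log2 fold 2.15), and Nrxn2 from 64.5 to 171 CPM (log2 fold 1.28). These were 3 of 7 in the CGE, beside 10.8% of all genes (5.12% higher and 5.66% lower). In the POA the Nxph1 levels were 23.8 and 45.7 CPM (log2 fold 0.72) and the Nrxn2 levels 122 and 242 CPM (log2 fold 0.93). Nlgn3 was level in both regions, with log2 folds of 0.03 and 0.04.

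Between regions, post-mitotic-like CGE cells had more Nrxn3 and Nxph1, and post-mitotic-like POA cells more of the remaining members. Post-mitotic-like POA and CGE cells had 254 and 525 CPM of Nrxn3 (log2 fold -1.02) and 45.7 (42.6 to 49.1) and 95.3 CPM (90.7 to 100.0) of Nxph1 (log2 fold -0.92), and the other 5 members had log2 folds of 0.29 to 0.48 towards the POA. Nrxn3 was 1 of 7 members past the fold, beside 3.37% of all genes, and it fell back to -0.94 when cells were thinned to a common depth. The CGE cells carried more of the MGE markers Sst and Lhx6 (500 against 119 CPM summed with Pvalb). Without every cell that had an Lhx6 count, an alternative added after seeing the data, Nrxn3 was at 199 against 469 CPM (log2 fold -1.20) and Nxph1 at 37.3 against 68.8 CPM (log2 fold -0.74). In cells with Lhx6 the Nxph1 levels were 58.5 CPM (483 POA cells) and 133 CPM (981 CGE cells), above those without it in both regions. In progenitor-like cells the difference in Nxph1 had the other sign, at 23.8 CPM (19.7 to 28.5) in the POA and 13.7 CPM (11.6 to 16.2) in the CGE. Cntnap2, at 82.7 and 32.3 CPM (log2 fold 1.13), was the 1 of 7 members past the fold in progenitor-like cells, beside 2.14% of all genes.

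A count of Hmx2 or Hmx3 was found in 365 of the 1558 post-mitotic-like POA cells. The paper labels NGCs by Hmx3 lineage together with Htr3a, and calls its POA cluster with Hmx2 and Hmx3 putative NGCs. Htr3a was not used in this split, so the cells with Hmx2 or Hmx3 are not named NGC precursors here. None of the 7 members passed the fold between the 365 cells and the other 1193 cells, and only 6 of 8857 genes did (0.0677%). Nrxn2 was at 283 and 223 CPM (log2 fold 0.33) and Nxph1 at 37.9 CPM (32.8 to 43.5) with and 49.3 CPM (45.3 to 53.4) without Hmx2 or Hmx3 (log2 fold -0.31). The cells with these genes were deeper, at a median of 9786 against 7117 counts. The share of cells with an Nxph1 count was 26.8% with and 25.9% without, and 12.4% and 16.6% after thinning to 4685 counts.

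**Figure D4:**
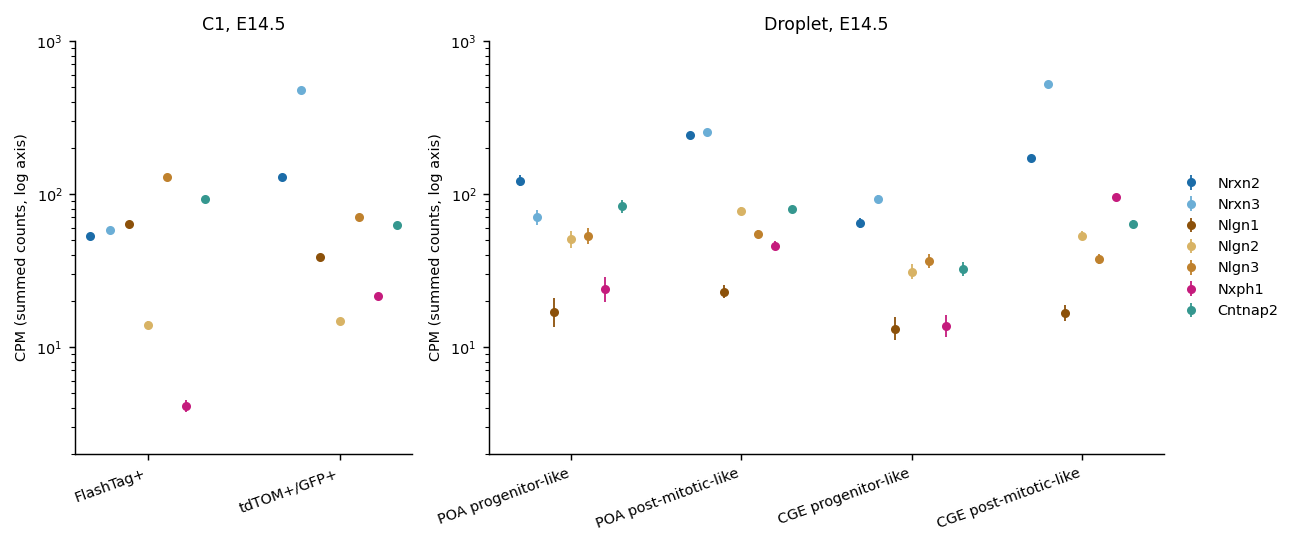
CPM of the members at E14.5 on a log axis, in C1 cells (left) and in droplets (right); points are summed counts and vertical lines 95% Poisson intervals. Nrxn3 steps up from progenitor-like to post-mitotic-like cells in both regions, from 69.9 to 254 CPM in the POA and from 92.2 to 525 CPM in the CGE; levels are not comparable between the panels.

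The members were higher in the postnatal core NGCs than in the E14.5 cells, to different extents. For comparisons between ages CPM were scaled over the gene rows that both tables share, and age, chip and capture day cannot be told apart. The E14.5 cells came from the POA and the postnatal cells from upper layers of somatosensory cortex, so age and tissue cannot be told apart here. The postnatal NGCs were also picked by subtype label, while the E14.5 group was every tdTOM+/GFP+ cell. The whole tdTOM+ sorts, which were not picked by label, held less Nxph1 than the core NGCs at both ages, as given above. At least 50 CPM of Nxph1 was reached by 63.3% of these sorted cells at P15, 69.8% at P30 and 8.13% of the E14.5 cells. How much the choice by label added to the folds was not tested. Against the E14.5 tdTOM+/GFP+ cells, Nxph1 went from 26.1 to 637 CPM in P15 NGCs (log2 fold 4.16) and from 21.5 to 501 CPM in P30 NGCs (4.02), and Cntnap2 from 76.9 to 971 CPM (3.50) and from 63.2 to 811 CPM (3.49). Nrxn2 had log2 folds of 1.44 and 1.43, and Nlgn2 of 1.33 and 1.42. Nlgn3 stood at 1.76 at P15 and 0.66 at P30, Nrxn3 at 1.44 at P30 and Nlgn1 at 0.75. At P15 5 of 5 members passed the fold, beside 41.1% of all genes (20.1% higher and 21.0% lower), and at P30 5 of 7, beside 39.1% (21.2% higher and 17.9% lower).

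From P15 to P30 the members differed by group. In Dock5+NGCs the log2 folds of Nrxn2, Nlgn2, Nxph1 and Cntnap2 lay between -0.11 and 0.09, while Nlgn3 went from 284 to 139 CPM, a log2 fold of -0.99 just inside the mark (0 of 5 past it, beside 16.7% of all genes). In Lsp1+NGCs Nlgn3 went from 344 to 145 CPM (log2 fold -1.19, 1 of 5 past the fold, beside 23.8%), Nrxn2 from 399 to 304 CPM (-0.38) and Nlgn2 from 53.7 to 70.0 CPM (0.33); the last 2 folds had the other sign in 1 set of plate rows (0.36 and -0.39). Nlgn3 was lower at P30 in non-NGCs too, at 189.7 against 315 CPM (-0.70), while Nlgn2 went from 30.7 to 47.0 CPM there (0.49). Among these groups, Nxph1 differed between ages chiefly in non-NGCs. It went there from 30.8 CPM (28.7 to 33.0) to 102 CPM on shared rows (log2 fold 1.46, 1 of 5, beside 11.9%). It was at 669 and 621 CPM in Dock5+NGCs and at 593 and 563 CPM in Lsp1+NGCs. The tdTOM- cells of the classes Vip (28.9 and 68.8 CPM), Sncg (7.92 and 61.4 CPM) and other Lamp5 (61.8 and 132 CPM) were each higher at P30 on all rows of each table. The subtypes that make up these classes differ in number between ages, and that difference was not corrected for. Other tdTOM- cells went both ways on all rows. Lsp1 cells of that sort were at 224 CPM at P15 and 411 CPM at P30. Inconclusive tdTOM- cells were at 165 and 58.0 CPM, and the whole tdTOM- sort was lower at P30 as well. The higher P30 level in non-NGCs depends on which tdTOM- cells carried a subtype label.

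**Figure D5:**
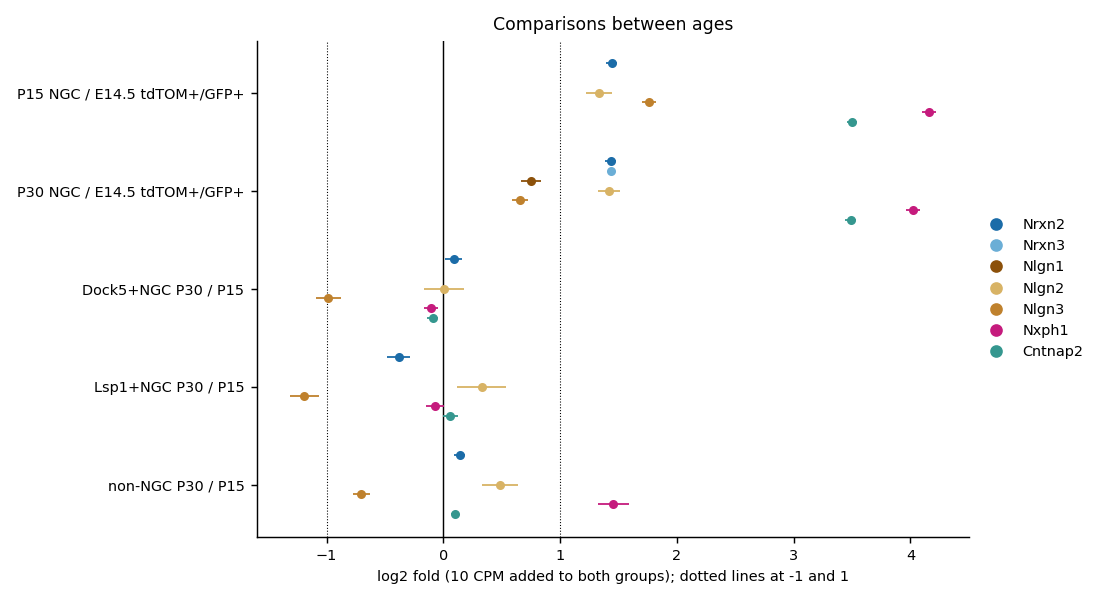
Log2 folds of the members between ages on shared gene rows, older over younger group. Points are folds of summed CPM with 10 CPM added, horizontal lines span the Poisson bounds of both groups and dotted lines mark -1 and 1. Nxph1 and Cntnap2 lie between 3.49 and 4.16 from E14.5 to the postnatal NGCs, and Nlgn3 is the member that lies lowest from P15 to P30.

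Other partners of these proteins were read from lists of known binding partners. Between NGCs and non-NGCs, 5.92% of all genes were past the fold in the higher and 7.83% in the lower direction at P15, and 6.92% and 7.43% at P30. Of the other extracellular partners of neurexins, 0 were higher and 3 lower of 14 at P15 and of 15 at P30, with list medians of -0.57 and -0.04 against -0.03 and 0.03 over all genes. Cbln2, a cerebellin that bridges neurexins to postsynaptic receptors, was at 57.7 CPM in NGCs and 836 CPM in non-NGCs at P15 (log2 fold -3.64) and at 27.6 and 426 CPM at P30 (-3.54). Fam19a2, a secreted neurexin ligand of the TAFA family, was at 19.3 and 71.3 CPM (-1.47) and at 2.83 and 67.7 CPM (-2.60). Unlike Nxph1, both of these secreted ligands were lower in NGCs.

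Of the intracellular partners of neurexins, 1 of 9 was higher and 0 lower at each age. It was Sytl2 at P15 (21.2 against 2.10 CPM, log2 fold 1.37) and Lin7a, a scaffold protein that binds Cask, at P30 (171 against 38.0 CPM, 1.91). The postsynaptic partners of neuroligins had 1 higher and 0 lower of 13 at P15, and 1 higher and 2 lower of 12 at P30. The higher one was the scaffold gene Dlgap2 both times (201 against 48.3 CPM, 1.85, and 199.7 against 53.8 CPM, 1.72). The lower ones at P30 were Gphn, the gephyrin that anchors inhibitory receptors (42.5 against 117 CPM, -1.27), and Magi2 (67.4 against 158 CPM, -1.11).

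The Cntnap2 complex had 3 higher and 2 lower of 17 at P15, and 1 higher and 1 lower of 19 at P30. Cntn5, a contactin, was higher in NGCs at both ages (120 against 41.9 CPM, 1.33, and 170.1 against 30.8 CPM, 2.14). The Kv1 channel gene Kcna1 was higher at P15 (119 against 43.0 CPM, 1.28), and Cntn1 was lower at P30 (227 against 533 CPM, -1.20). Of 4 genes for proteins that cleave neurexins or neuroligins, Adam10 was past the fold at P15 (151 against 60.7 CPM, 1.19) and none at P30. Against the E14.5 tdTOM+/GFP+ cells, 20.1% of all genes were past the fold higher and 21% lower at P15, and 21.2% and 17.9% at P30. There the Cntnap2 complex had 14 higher and 0 lower of 17 at P15 and 16 higher and 0 lower of 19 at P30. Its medians were 2.31 and 2.46 against -0.08 and 0.04 over all genes. Lgi2 and Cntn1 led it at P15 (log2 folds 4.71 and 3.77).

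In the embryo, between tdTOM+/GFP+ and FlashTag+ cells, 7.53% of all genes were past the fold higher and 15.3% lower. The postsynaptic partners of neuroligins had 5 higher and 0 lower of 12, led by Lhfpl4 (120 against 19.6 CPM, 2.13), an auxiliary subunit of GABA-A receptors, and the extracellular partners had 4 higher and 1 lower of 12. In the CGE droplets, post-mitotic-like against progenitor-like cells, the extracellular partners had 3 higher and 0 lower of 11, beside 5.12% and 5.66% of all genes. Between post-mitotic-like POA and CGE cells the extracellular partners had 3 higher and 0 lower of 14, beside 2.13% and 1.24% of all genes, among them Cbln1 (41.0 against 6.73 CPM, 1.61). The intracellular Lin7a was at 65.6 and 14.8 CPM there (1.61).

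The genes whose levels ran most like a member were ranked by the smaller of the Pearson correlations at P15 (12 groups of subtype and sort) and P30 (16 groups), over 7399 genes with a row at both ages. For Nxph1 they included Nyap2 (r = 0.80 and 0.82), the presynaptic scaffold gene Rimbp2 (0.75 and 0.79), Osbpl11 (0.72 and 0.82) and the calcium pump gene Atp2a2 (0.71 and 0.76). Elfn1 and Hap1 were most like Nrxn2 (smaller r 0.75 each), Runx1t1 and Fbxl20 most like Cntnap2 (0.68 and 0.62), Enox1 and H1fx most like Nlgn3 (0.70 and 0.64) and Zfp276 and Ankrd13c most like Nlgn2 (0.64 and 0.60). At P30 alone, over 8571 genes, Gng2 and the cannabinoid receptor gene Cnr1 were most like Nrxn3 (0.86 and 0.85), and 2810428I15Rik and Fam178a most like Nlgn1 (0.80 and 0.74). The groups share sorts and chips and hold as few as 5 cells. Between members no correlation exceeded 0.31 at P15 or 0.27 at P30, and the most negative was -0.56, between Nrxn3 and Nxph1 at P30.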

How the data were processed

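Cells were captured on C1 chips, in droplets or after patch-clamp recording. The deposited values were the authors' counts per gene and cell. For C1 cells the authors aligned reads with STAR to GRCm38, removed duplicates by UMI with UMI-tools and counted exonic reads with strand. Droplet counts came from Cell Ranger (mm10). The authors left out cells with few genes, few UMIs or many mitochondrial reads, and, at E14.5, clusters that were not GABAergic. Every value column was mapped to its sample (0 unused). Some genes that the lists or rankings would name are not reported here.

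Each cell took its group from its labels; droplet cells were post-mitotic-like or progenitor-like by the larger summed count of 7 neuronal genes (among them Dcx, Tubb3 and Gad2) or of 7 progenitor genes (among them Nes, Hes5 and Mki67) (9 POA and 41 CGE cells had as many of both). The droplet libraries shared 12 barcodes. No program for doublets was run. Some deposited C1 cells held fewer counts than the UMI minimum that the methods give for C1 (lowest 18412). All were kept, and cells of at least 100000 counts were an alternative for C1. For patch-seq the methods give other criteria and no UMI minimum. The lowest patch-seq cell held 33826 counts, and all patch-seq cells were kept.

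Counts were summed per group with Python 3.11.15, numpy 2.4.6, scipy 1.17.1 and pandas. Intervals were exact Poisson (levels) and exact Clopper-Pearson (shares), at 95%. Intervals of folds spanned the Poisson bounds of both groups. No test was run because each group was 1 sample. The named genes were the members, the leading 2 genes per direction of each list and those most alike in pattern. Members and lists were chosen with earlier results of these data known. The steps were tested on simulated counts and gave back every planted direction. Alternatives were other measures, pseudocounts, filters, plate rows, cells and rows.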

Additional observations from a re-analysis of the deposited data

Results flagged for a closer look

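Some members pointed one way in 1 collection and the other way in another, with counting intervals that lay off 0 in both. None of these differences was tested, since each group was 1 sample, and several directions turned under an alternative, as given below. Between Dock5+NGCs and Lsp1+NGCs, Nrxn2 had a log2 fold of -0.93 in patch-seq and 0.71 at P30, and Nrxn3 of -0.47 in patch-seq and 0.30 at P30; 1 deep Lsp1 cell held 72.9% and 62.5% of the patch-seq Lsp1 counts of these genes, and without the deepest cells the patch-seq folds were 0.40 and 0.48. Between tdTOM+ and tdTOM- Lsp1 cells, Nrxn2 had -0.21 at P30 and 0.34 at P15, and Nlgn3 -0.49 at P15 and 0.23 at P30; each of these 4 folds had the other sign in 1 set of plate rows. Between POA and CGE, Nxph1 had -0.92 in post-mitotic-like and 0.51 in progenitor-like cells. From P15 to P30, Nrxn2 had -0.38 in Lsp1+NGCs and 0.14 in non-NGCs, Nxph1 -0.11 in Dock5+NGCs and 1.46 in non-NGCs, and Cntnap2 -0.090 in Dock5+NGCs and 0.10 in non-NGCs. Of these, the Nxph1 fold in non-NGCs kept its sign in every alternative (0.63 to 1.69), none of which used whole sorts or inconclusive cells. The other folds did not keep theirs. Nrxn2 reached 0.36 in Lsp1+NGCs and -0.15 in non-NGCs, and Nxph1 reached 0.18 in Dock5+NGCs. Cntnap2 reached 0.081 in Dock5+NGCs and -0.20 in non-NGCs.

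The cells labelled inconclusive entered the whole sorts but none of the main comparisons. At P30 the 154 inconclusive tdTOM+ cells had 305 CPM of Nxph1 (299 to 311) and the 156 inconclusive tdTOM- cells 58.0 CPM (55.4 to 60.6), a log2 fold of 2.21. At P15 the levels were 243 CPM (85 cells) and 165 CPM (81 cells), a log2 fold of 0.53. These cells have no subtype, so the makeup of the groups is not known.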

How the results depend on the processing

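The counts of members past the fold were within 1.5 times the main count in 147 of 174 alternatives and moved in 27; of 1086 member folds, 736 moved by less than the counting interval, 350 moved and 62 had another sign than the main value, none of them a value past the fold. Nxph1 in NGCs against non-NGCs ranged from 1.26 to 4.65 at P15 and from 1.67 to 3.34 at P30 (lowest with whole sorts, 320.3 against 128 CPM at P15). Adding 1 CPM gave 2 members at P30 (Nrxn3 as well), 1 in patch-seq (Nlgn3), 2 between post-mitotic-like POA and CGE cells (Nxph1 as well) and 1 in Dock5+NGCs between ages (Nlgn3). Adding 100 CPM gave 1 between E14.5 C1 collections, 1 in the CGE, and 0 in both POA and CGE comparisons and in Lsp1+NGCs and non-NGCs between ages. Mean CPM of single cells gave 1 in patch-seq (Cntnap2), 0 between post-mitotic-like POA and CGE cells (0 with thinning too) and 0 in Lsp1+NGCs between ages. Leaving mitochondrial genes out gave 2 at P30 and 1 in patch-seq (Nlgn3). Plate rows 1 to 20 gave 2 for Dock5 against Lsp1 at P30 (Nrxn2 and Nlgn1; 35 and 13 cells), 2 for the Lsp1 sorts at P15 and 2 at P30 (13 and 10 cells), 1 between E14.5 C1 collections and 2 in Lsp1+NGCs between ages. Plate rows 21 to 40 gave 2 at P30 for NGCs against non-NGCs, 1 in Dock5+NGCs and 2 in Lsp1+NGCs between ages. All rows of each table gave 1 in Dock5+NGCs between ages. Added after seeing the data, post-mitotic-like cells alone gave 1 (Cntnap2) between E14.5 C1 collections, and leaving out the deepest cell of each patch-seq subtype gave 1 (Cntnap2, log2 fold 1.44). The cause was not tested. No paired analysis was possible because no result comes from a test and each group is 1 sample.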

Other observations

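Among relatives outside the list, Nxph4, another neurexophilin, was higher in POA than in CGE cells in the E14.5 droplet libraries. It was at 90.7 CPM (95% Poisson interval 86.2 to 95.3) in post-mitotic-like POA cells and 2.93 CPM (2.17 to 3.86) in post-mitotic-like CGE cells (log2 fold 2.96), and at 26.9 and 0.981 CPM in progenitor-like cells. A count was found in 34.9% and 1.06% of the post-mitotic-like cells. Post-mitotic-like POA cells with Hmx2 or Hmx3 had 77.5 CPM and those without 96.5 CPM. On C1 chips it was near 0 in both POA collections, at 0.201 CPM in tdTOM+/GFP+ and 0.224 CPM in FlashTag+ cells. In the P15 NGCs, also from C1 chips, it was at 0 of 20241510 counts. Whether the C1 counts can read Nxph4 was not tested, so these low values do not show that it is absent. Cntnap1, the Caspr of the paranode, was at 121 CPM in P15 NGCs (116 to 126), and Cntnap5a was at 13.5 CPM in NGCs and 106 CPM in non-NGCs at P30 (log2 fold -2.31).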
